A study of Homo sapiens with 80 samples.

Results

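The HSP90 chaperone system was followed in Jurkat T cells, a human leukaemic T lymphocyte line, as 10 of the 60663 genes of the count table. The members were taken by gene symbol, with earlier results of these data known, and the study had picked HSP90AA1 as an example from these libraries partly for its change in expression, so that its direction at 9 g is not independent evidence. They comprised the 4 HSP90 paralogs HSP90AA1 and HSP90AB1 (cytosol), HSP90B1 (endoplasmic reticulum) and TRAP1 (mitochondria), the 4 cochaperones AHSA1, CDC37, STIP1 and PTGES3, and the heat shock factors HSF1 and HSF2. All 10 members passed the filter on low counts in all 14 comparisons.

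RNA-Seq libraries after depletion of ribosomal RNA were analysed in 15 groups of 2 experiments. In the first, 8 groups of cells in pipettes were spun at 9 g in a pipette centrifuge and lysed at once. The short exposures hypg20s and hypg75s lasted 20 and 75 s, and in hypg3, hypg5, hypg7, hypg9, hypg15 and hypg60 the number of the name is the exposure in minutes. Their controls at 1 g were Ctrl (15 min) and, for hypg60, Ctrl60 (60 min), and each group had 6 libraries. By the paper's scheme, groups with exposures shorter than 15 min stood at 1 g before the spin, to a total of 15 min. In the second, cells were spun at 300 g for 5 min and lysed 1 min (wait1min), 4 min (wait4min) or 15 min (wait15min) after the stop, or were warmed in a water bath at 42 °C for 5 min (heat), and the controls (Ctrl300) were lysed directly, with 4 libraries per group. Library 75 of hypg15 had no counts on several chromosomes and was left out, so that hypg15 had 5 libraries and 79 libraries were used. The titles were followed where column names read otherwise, which was instant for wait1min and 1 min for wait4min, so that these 2 waiting times are uncertain. The columns of Ctrl60 carried the words plus HEPES, and it is not given whether hypg60 contained HEPES. The Ctrl300 cells had no spin or waiting time of their own in a tube. All libraries came from a single cell line, and nothing in the labels says that they came from separate cultures, so that p-values measure the spread between these libraries.

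In the human genome build of the table (hg38), HSP90AA1 lies at chr14:102080742-102139699 on the minus strand, HSP90AB1 at chr6:44246166-44253888 on the plus strand, HSP90B1 at chr12:103930107-103953931 on the plus strand and TRAP1 at chr16:3651639-3717553 on the minus strand. Counts were summed over the exons of each gene.

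HSP90 proteins are ATP-driven chaperones that complete the folding of kinases, steroid receptors and other client proteins. STIP1 hands clients over from HSP70, CDC37 brings kinases, AHSA1 speeds up the ATPase of HSP90, and PTGES3 (p23) holds the closed state. HSP90AA1 is the stress-inducible cytosolic paralog and HSP90AB1 the constitutive one, and HSF1 is the main transcription factor of the heat shock response, which HSP90 holds in check in unstressed cells.

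HSF1 binds the heat shock element, inverted repeats of the unit GAA. The promoter windows of RefSeq (GRCh38.p14, 250 bases before to 50 after a gene start) were searched on both strands for GAANNTTC, for TTCNNGAA and for the longer element that joins them, GAANNTTC followed directly by NNGAA, in which the shorter motifs overlap. Windows were matched for 9 of the 10 members (15 windows, several genes with more than 1 start), and the longer element was present for 2 members, HSP90AA1 and HSP90AB1, against 0.608% of the 27305 genes with a window. They are shown because these 2 cytosolic paralogs share the element and moved in opposite directions after 300 g. Capitals mark the matched bases. The HSP90AA1 window lies at chr14:102086995-102087294 (minus strand) and is number 2 of its 2 windows, and the HSP90AB1 window at chr6:44247693-44247992 (plus strand) is number 3 of its 3.
HSP90AA1: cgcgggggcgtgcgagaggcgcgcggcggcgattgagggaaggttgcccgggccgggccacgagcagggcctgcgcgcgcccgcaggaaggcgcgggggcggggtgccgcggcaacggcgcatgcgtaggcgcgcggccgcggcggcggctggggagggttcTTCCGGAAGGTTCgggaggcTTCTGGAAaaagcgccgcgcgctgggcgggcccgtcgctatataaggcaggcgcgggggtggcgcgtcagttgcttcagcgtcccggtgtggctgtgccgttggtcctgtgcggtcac
HSP90AB1: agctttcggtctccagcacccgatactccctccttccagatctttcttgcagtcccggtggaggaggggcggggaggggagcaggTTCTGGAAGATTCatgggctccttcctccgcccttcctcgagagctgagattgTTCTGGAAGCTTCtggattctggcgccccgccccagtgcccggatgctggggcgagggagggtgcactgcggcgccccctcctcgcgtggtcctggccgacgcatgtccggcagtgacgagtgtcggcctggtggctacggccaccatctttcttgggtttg
In HSP90AA1 the element of 13 bases stood at positions -88 to -76 from the start and a further TTCNNGAA at -68 to -61. In HSP90AB1 2 such elements stood at -165 to -153 and at -112 to -100. STIP1 held a single TTCNNGAA after its second start, a part found for 9.46% of all genes, and GAANNTTC was found for 8.21%. A match is a description of the letters and no measured binding site.

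Total counts per library ran from 22634465 to 41893490. Counts of the members in a library ran from 43530 to 112714 for HSP90AB1 and from 6013 to 56581 for HSP90AA1, and were lowest for HSF2, at 245 to 1049. The mean GC content of the counted genes, weighted by counts, lay between 52.0% and 54.0% in all Ctrl groups, heat and 9 g groups except hypg60, which reached down to 51.5%, and between 48.9% and 49.3% in the 3 groups after 300 g. The summed level of 8 T cell markers (CD3D to TRBC1) lay between 3078 and 4337 CPM (counts scaled to the library size) in the 9 g experiment, between 3314 and 3567 CPM in Ctrl300 and heat, and between 2031 and 2279 CPM after 300 g. The B cell marker MS4A1, myeloid CSF1R and LYZ and epithelial EPCAM stayed below 0.16 CPM in every library. In contrast, CD79A was detected at 24.1 to 77.2 CPM, the fibroblast gene COL1A1 at 2.98 to 10.1 CPM and myeloid CD14 at 0.096 to 0.68 CPM in all 79 libraries. The part of these shifts in the results was not tested. In bulk RNA, fewer cells with a transcript and less transcript per cell cannot be told apart.

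Under 9 g, HSP90AA1 transcripts were lower than in the control, most at 3 and 15 min, and the differences at 5 and 60 min did not pass the test. In Ctrl, HSP90AA1 ran from 731 to 924 CPM with a median of 818. It ran from 509 to 753 CPM with a median of 577 in hypg20s, and from 443 to 683 CPM with a median of 519.9 in hypg75s. In hypg3 it ran from 263 to 492 CPM with a median of 405, below every control library. The log2 fold changes were -0.45 ± 0.092 (SE, adjusted p = 0.0063) at 20 s, -0.57 ± 0.091 (SE, adjusted p = 0.00037) at 75 s and -1.07 ± 0.11 (SE, adjusted p = 1.8e-05) at 3 min, by edgeR's quasi-likelihood test with Benjamini-Hochberg adjustment over all genes tested. The fall at 3 min corresponded to a 2.1-fold lower level.

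The middle time points lay closer to the control. HSP90AA1 ran from 436 to 757 CPM with a median of 703 in hypg5, from 574 to 730.1 CPM with a median of 666 in hypg7 and from 553 to 820.2 CPM with a median of 710.1 in hypg9. The change was -0.32 ± 0.062 (SE, adjusted p = 0.0055) at 7 min and -0.26 ± 0.086 (SE, adjusted p = 0.046) at 9 min, and the value at 5 min, -0.32 ± 0.11 (SE, adjusted p = 0.1), did not pass the threshold. Library 29 of hypg5 stood at 436 CPM, below its other 5 libraries, and without it the value passed at -0.21 (adjusted p = 0.04). At 7 min the groups just failed to overlap, and at 5 and 9 min they overlapped. The calls at 7 and 9 min were lost in a single model over all groups (adjusted p = 0.13 and 0.21).

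In hypg15 the 5 libraries held 376, 345, 453, 404 and 348 CPM, all below the control libraries. The log2 fold change was -1.12 ± 0.075 (SE, adjusted p = 5.8e-07), 2.18-fold lower. After 60 min, HSP90AA1 ran from 513 to 1205 CPM with a median of 718, over a range of 669 to 897 CPM in Ctrl60, and the groups overlapped. The value was -0.11 ± 0.16 (SE, adjusted p = 0.65), with a 95% interval from -0.42 to 0.21. It was -0.28 (adjusted p = 0.056) without library 44, the highest of hypg60. The incubation time alone, Ctrl60 against Ctrl, gave -0.026 ± 0.071 (SE, adjusted p = 1).

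The differences between time points were tested directly. HSP90AA1 was higher at 7 min than at 3 min by 0.73 ± 0.12 (SE, adjusted p = 0.0027). At 15 min it was lower than at 9 min, with -0.85 ± 0.10 (SE, adjusted p = 0.00016). The effect at 60 min, against its own control, exceeded that at 15 min by 1.03 ± 0.19 (SE, adjusted p = 0.0037). Library numbers were 69 to 80 for hypg3 and hypg15 but 1 to 48 for Ctrl and the other 9 g groups, so that a difference between the 2 number ranges and the effect of these 2 time points cannot be told apart. Within the numbers 1 to 48, HSP90AA1 fell at 20 s, 75 s, 7 min and 9 min. With 3 surrogate variables in the model HSP90AA1 was called lower at 2 of 8 time points, at -0.20 at 20 s (adjusted p = 0.0085) and at -0.47 at 15 min (adjusted p = 0.039), and the value at 9 min turned to 0.26 (adjusted p = 0.79). With these variables edgeR called few genes in all, 4.32% at 20 s, 0.34% at 15 min and between 0% and 0.496% at the other time points, so that a lost call is not particular to a member. At 75 s and 3 min 0 genes were called, with 1004 and 1188 at an unadjusted p under 0.05.

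**Figure D1:**
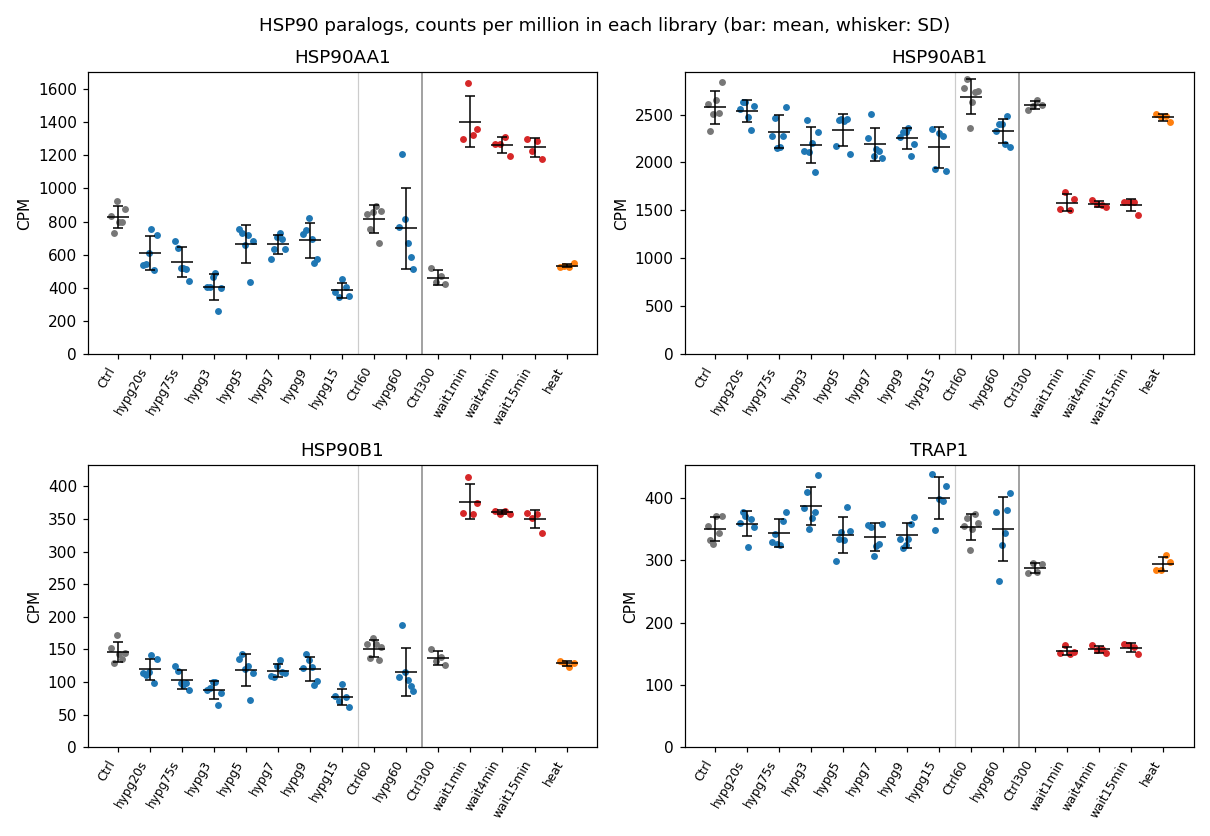
CPM of the 4 HSP90 paralogs (y axes, linear from 0) in each of the 79 libraries, by group (x axis), with the mean (bar) and SD (whisker), where grey points are controls, blue 9 g, red 300 g and orange heat. HSP90AA1 and HSP90B1 dip in hypg3 and hypg15 and rise after 300 g, where HSP90AB1 and TRAP1 fall.

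HSP90B1, the paralog of the endoplasmic reticulum (GRP94), had the same sign as HSP90AA1 at each of the 8 time points, and its calls fell on the same 6. It ran from 129 to 173 CPM with a median of 144 in Ctrl and from 65.4 to 101 CPM with a median of 89.3 in hypg3, and the 5 libraries of hypg15 held 78.2, 71.5, 97.2, 77.5 and 62.6 CPM. Neither of these 9 g groups overlapped the control. The log2 fold changes were -0.77 ± 0.094 (SE, adjusted p = 3.6e-05) at 3 min and -0.94 ± 0.094 (SE, adjusted p = 4.5e-06) at 15 min. With GC correction, which removes a smooth curve of counts on gene GC content in each library, they shrank to -0.52 and -0.60, both still called, while those of HSP90AA1 were -0.99 and -1.03. The match of the calls did not hold with GC correction, where HSP90B1 was not called at 20 s (-0.16, adjusted p = 0.072) and was called at 60 min (-0.26, adjusted p = 0.018), unlike HSP90AA1.

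HSP90AB1, the most abundant paralog, moved less. It ran from 2327 to 2843 CPM with a median of 2561 in Ctrl, and overlapped it in every group of the time course. It fell at 6 of 8 time points, by values between -0.14 at 75 s and -0.28 at 3 and 15 min, and had -0.037 ± 0.046 (SE, adjusted p = 0.62) at 20 s. At 60 min, where HSP90AA1 was not called, HSP90AB1 was at -0.21 ± 0.065 (SE, adjusted p = 0.024). TRAP1, the mitochondrial paralog, was called only at 15 min among the 9 g groups, at 0.17 ± 0.052 (SE, adjusted p = 0.011), and there the GC correction took the value to -0.069 (adjusted p = 0.15). With GC correction TRAP1 was called lower at 6 of 8 time points, at -0.085 at 20 s, and HSP90AB1 at 7 of 8. Between 10.2% and 29.8% of all genes were called lower with the correction. The median of all genes was then -0.041 at 20 s and -0.070 at 15 min. With 3 surrogate variables none of the 8 time points had a call for HSP90AB1, HSP90B1 or TRAP1, where 4.32% of all genes or fewer were called, and HSP90AB1 turned to 0.13 at 15 min.

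The ratio of HSP90AA1 to each paralog within a library, which does not depend on how libraries are scaled, was compared in 36 tests (3 paralogs and 12 comparisons with the own control) with two-sided exact permutation tests over libraries. In Ctrl, HSP90AA1 had 0.321 counts per count of HSP90AB1, in hypg3 0.183 and in hypg15 0.178. The log2 ratio was lower by 0.81 at 3 min (difference -0.81, exact permutation p = 0.0022, adjusted 0.011) and differed by -0.85 at 15 min (exact permutation p = 0.0043, adjusted 0.016). It was also lower at 20 and 75 s, and at 5, 7, 9 and 60 min the difference did not pass, with 0.056 at 60 min. Relative to HSP90B1, HSP90AA1 fell by less, -0.31 at 3 min and -0.18 at 15 min, and at 60 min the difference was in the other direction, 0.28 (exact permutation p = 0.0022, adjusted 0.011), with no overlap between hypg60 and Ctrl60. In all, 24 of the 36 ratios passed, 8 for each paralog.

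**Figure D2:**
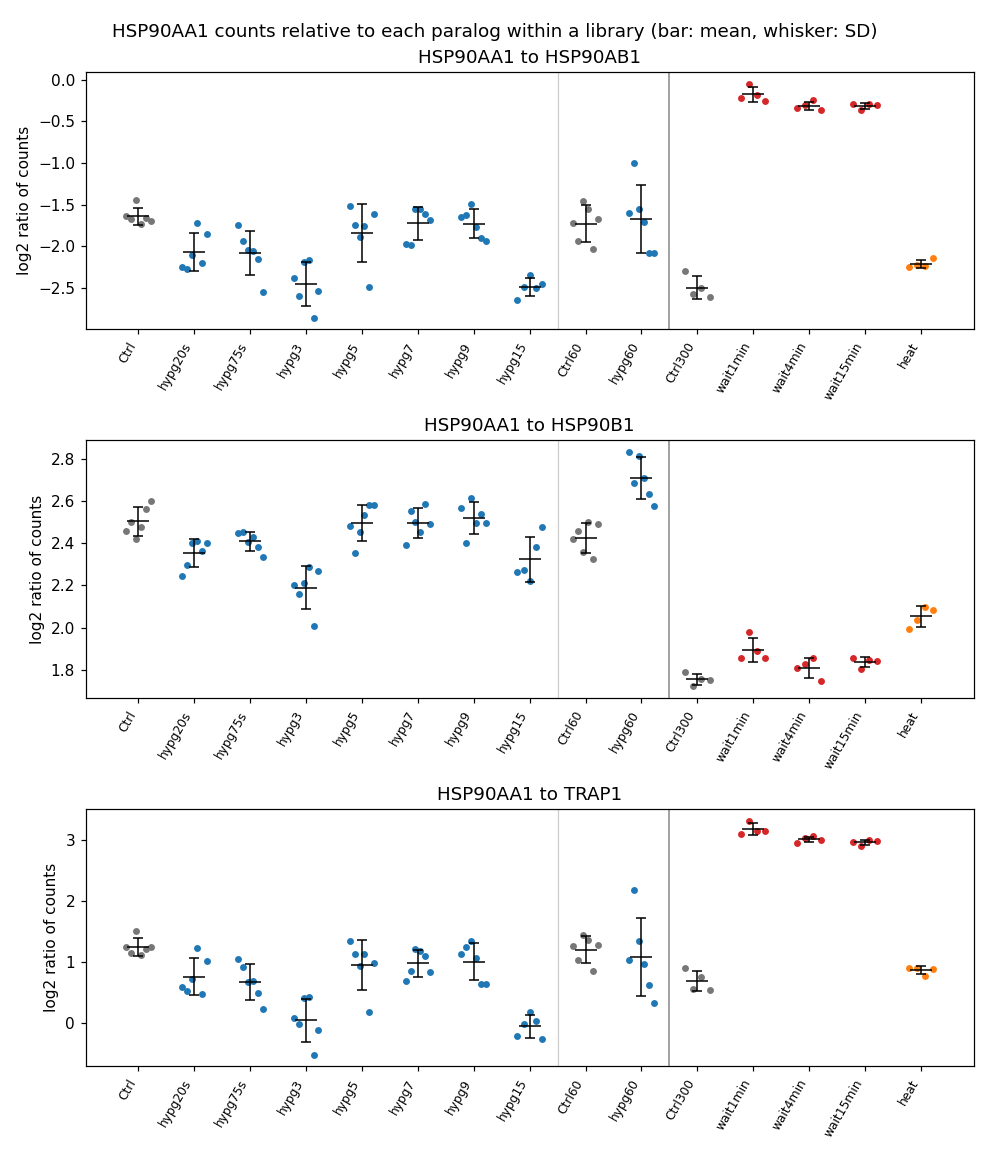
Log2 ratio of HSP90AA1 counts to those of HSP90AB1, HSP90B1 and TRAP1 (y axes, 0.5 added to each count) in each library, by group (x axis), with mean (bar) and SD (whisker) and colours as in the plot of the paralogs. The ratio to HSP90AB1 lies between -2.86 and -2.16 in hypg3, hypg15 and Ctrl300 and between -0.37 and -0.047 in the 12 libraries after 300 g, whereas the ratio to HSP90B1 lies between 1.72 and 2.10 in all 20 libraries of that experiment.

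After 5 min at 300 g the 2 cytosolic paralogs parted. HSP90AA1 held 519, 434, 471 and 425 CPM in the 4 libraries of Ctrl300 and 1300, 1635, 1322 and 1357 CPM in wait1min. All centrifuged libraries lay above the controls, and the log2 fold change was 1.57 ± 0.069 (SE, adjusted p = 6.6e-13), 2.97-fold higher. HSP90AB1 held 2552, 2587, 2656 and 2595 CPM in Ctrl300 and 1513, 1689, 1500 and 1618 CPM in wait1min. All centrifuged libraries lay below the controls, with -0.75 ± 0.04 (SE, adjusted p = 7.6e-12), 1.68-fold lower.

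The log2 ratio of HSP90AA1 to HSP90AB1 was 2.32 higher in wait1min, 2.18 in wait4min and 2.18 in wait15min. Each had an exact permutation p of 0.029, the smallest that 4 against 4 libraries allow (adjusted 0.045). HSP90AA1 counts rose from 0.177 to 0.886 per count of HSP90AB1. With GC correction the log2 fold changes in wait1min were 1.50 for HSP90AA1 and -0.53 for HSP90AB1, both called.

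HSP90B1 rose like HSP90AA1, from 150.3, 132, 139 and 126 CPM to 359, 415, 357 and 375 CPM, with 1.43 ± 0.055 (SE, adjusted p = 1.1e-13). GC correction moved this value to 0.69 (adjusted p = 2.5e-12). TRAP1 fell from 279.7, 295, 281 and 293 CPM to 152, 164, 149 and 153 CPM, with -0.93 ± 0.037 (SE, adjusted p = 1.5e-13), and GC correction moved it to -0.32 (adjusted p = 3.8e-08). Relative to HSP90B1, the ratio of HSP90AA1 was 0.14 higher in wait1min (exact permutation p = 0.029, adjusted 0.045). In wait4min it was 0.055 higher, overlapped Ctrl300 and did not pass (exact permutation p = 0.11, adjusted 0.15). In wait15min it was 0.081 higher (exact permutation p = 0.029, adjusted 0.045). The ratios were not corrected for GC content, and the corrected log2 fold changes of the pair, 1.50 and 0.69 in wait1min and -1.03 and -0.60 in hypg15, lie farther apart than the uncorrected ratios.

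The waiting time after the spin made little difference. HSP90AA1 held 1270, 1270, 1312 and 1198 CPM in wait4min and 1298, 1229, 1288 and 1178 CPM in wait15min. Against Ctrl300 its log2 fold changes were 1.42 ± 0.045 (SE, adjusted p = 1.1e-17) and 1.41 ± 0.051 (SE, adjusted p = 7.7e-15). Between wait15min and wait1min 0 of 10 members were called by edgeR and 0 by DESeq2 (against 0.149% of all genes tested), and HSP90AA1 had -0.16 ± 0.051 (SE, adjusted p = 0.25). Leaving out 1 library moved this value between -0.19 and -0.093, and without the filter on low counts HSP90AA1 was called. The libraries of HSP90AA1 and HSF2 nevertheless did not overlap between these 2 groups, which held for 5.65% of all genes. At an unadjusted p under 0.05 by edgeR, 3 members (HSP90AA1, HSP90B1 and HSF2) and 12.6% of all genes differed.

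The rise at 300 g was set against the exposure of the same duration at 9 g. The effect of wait1min on HSP90AA1 exceeded that of hypg5 by 1.89 ± 0.16 (SE, adjusted p = 7.4e-10). The 2 experiments differed in the level of HSP90AA1 already in their controls, at 828 ± 67.7 CPM (SD, n = 6) in Ctrl and 462 ± 42.9 CPM (SD, n = 4) in Ctrl300, whereas HSP90AB1 stood at 2575 ± 172 CPM and 2597 ± 42.9 CPM. The force, the vessel, the cell density and the waiting time of the control differed as well and cannot be told apart.

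Heating moved HSP90AA1 by less than the spin. The 4 libraries held 529, 530.4, 526 and 548 CPM, all above Ctrl300, with 0.23 ± 0.049 (SE, adjusted p = 0.0036), 1.17-fold higher. The difference from wait1min was -1.44 ± 0.054 (SE, adjusted p = 6.7e-15). HSP90AB1 in heated cells held 2509, 2479, 2484 and 2422 CPM, with -0.052 ± 0.027 (SE, adjusted p = 0.21), HSP90B1 had -0.071 ± 0.047 (SE, adjusted p = 0.32) and TRAP1 0.05 ± 0.032 (SE, adjusted p = 0.31). The ratio of HSP90AA1 to HSP90AB1 was 0.28 higher and that to HSP90B1 0.30 higher, both with exact permutation p = 0.029 (adjusted 0.045), and the ratio to TRAP1 was 0.18 higher (exact permutation p = 0.11, adjusted 0.15).

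Over the 10 members, the called changes at 9 g were mostly falls. At 20 s 3 members fell and 0 rose, where edgeR called 8.58% lower and 6.66% higher of all genes tested. At 75 s 6 fell and 1 rose (all genes 14.4% lower and 16.8% higher), and at 3 min again 6 fell and 1 rose (all genes 24.4% lower and 16.9% higher). At 5 min AHSA1 alone fell (all genes 1.69% lower and 4.33% higher), at 7 min 5 fell (all genes 6.19% lower and 6.64% higher) and at 9 min 6 fell (all genes 8.34% lower and 11.3% higher). At 15 min 6 fell and 2 rose (all genes 27.9% lower and 25.4% higher), and at 60 min HSP90AB1 alone fell (all genes 13% lower and 17.1% higher). With GC correction 5 fell and 1 rose at 5 min (all genes 1705 lower and 816 higher of 16284) and 7 fell at 60 min (all genes 3929 lower and 2831 higher of 16318). With 3 surrogate variables no member was called at either time, and 0.00614% and 0.496% of all genes were. At 60 min 3 were called without library 44 (all genes 3637 lower and 3482 higher of 16417).

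Between the controls Ctrl60 and Ctrl, 0 members were called by edgeR or DESeq2, and 0 had an unadjusted p under 0.05 (all genes 0.0124% called and 3.59% at an unadjusted p under 0.05). All 10 members were called at each waiting time after 300 g, 3 higher and 7 lower. There, 40.1% lower and 41.4% higher of all genes were called at 1 min, 40.6% lower and 41.7% higher at 4 min and 40.5% lower and 41.8% higher at 15 min, so that the count of calls sets the members apart little. With GC correction 8 members were called at each waiting time (all genes 72.2%, 74.7% and 74.1%). Leaving out 1 library left 9 or 10 called in wait1min. In heated cells 1 rose and 1 fell (all genes 10.2% lower and 10.6% higher).

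The libraries of treatment and control did not overlap for 0 members at 20 s (all genes 5.75%), 2 at 75 s (all genes 14.6%), 2 at 3 min (all genes 20.2%) and 0 at 5 min (all genes 4.92%). They did not overlap for 1 member at 7 min (all genes 5.89%), 1 at 9 min (all genes 9.26%), 4 at 15 min (all genes 32.8%) and 0 at 60 min (all genes 13.5%). Between the controls the count was 0 (all genes 0.323%). After 300 g the counts were 9, 10 and 10 members at 1, 4 and 15 min (all genes 76.6%, 77% and 77.3%), and 3 in heated cells (all genes 24%).

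**Figure D3:**
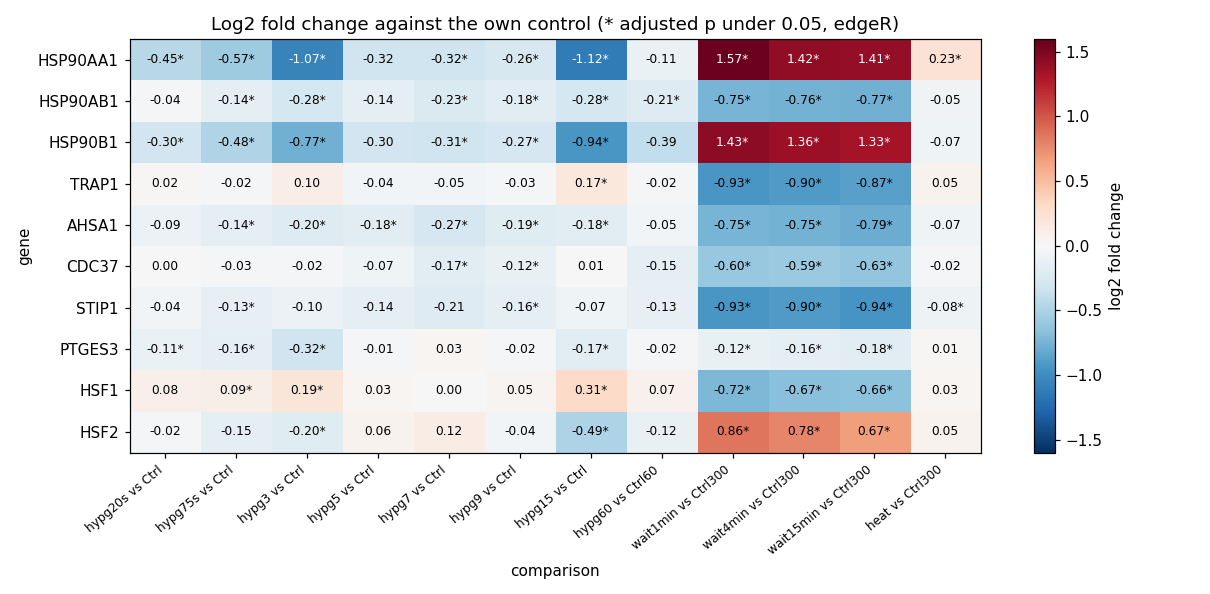
Log2 fold change (colour and number) of the 10 members (rows) in the 12 comparisons with the own control (columns), where an asterisk marks an adjusted p under 0.05. HSP90AA1 and HSP90B1 share their signs apart from heat, and HSF1 and HSF2 have opposite signs in the columns where both are called.

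AHSA1, the activator of the HSP90 ATPase, fell at 6 of 8 time points at 9 g, against 2 for CDC37, 2 for STIP1 and 4 for PTGES3. With GC correction AHSA1, CDC37 and STIP1 were each called lower at 8 of 8. The correction also called between 10.2% and 29.8% of all genes lower and between 4.02% and 17.3% higher. With 3 surrogate variables AHSA1 and STIP1 were each called lower at 1 of 8 and neither CDC37 nor PTGES3 at any (all genes 4.32% or less), and AHSA1 turned to 0.05 at 3 min and 0.17 at 15 min. It ran from 155 to 183 CPM with a median of 168 in Ctrl and from 143 to 149 CPM with a median of 146 in hypg9, where the groups did not overlap. Its log2 fold changes were -0.19 ± 0.033 (SE, adjusted p = 0.0012) at 9 min and -0.27 ± 0.055 (SE, adjusted p = 0.0074) at 7 min. After 300 g it fell from 195, 202, 206 and 208 CPM to 119, 135, 115 and 124 CPM, with -0.75 ± 0.043 (SE, adjusted p = 2e-11), which GC correction moved to -0.32 (adjusted p = 4.5e-07).

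STIP1 (HOP), the adaptor between HSP70 and HSP90, fell at 75 s (-0.13 ± 0.043, adjusted p = 0.034) and at 9 min (-0.16 ± 0.043, adjusted p = 0.016), and it had a negative sign at all 8 time points. With GC correction it was called lower at 8 of 8 (all genes between 10.2% and 29.8%), at values from -0.14 at 20 s to -0.29 at 15 min. After 300 g it fell from 607, 631, 629.7 and 632 CPM to 324, 357, 315 and 345 CPM, with -0.93 ± 0.039 (SE, adjusted p = 3e-13) and -0.35 with GC correction. It was the member that fell in heated cells, at -0.081 ± 0.027 (SE, adjusted p = 0.043), a call that was lost when scaling by total counts alone (adjusted p = 0.13) and without any of libraries 50, 51, 52, 65, 66 or 68.

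CDC37, the kinase-specific cochaperone, changed sign after 300 g with GC correction. At 9 g it fell at 7 min (-0.17 ± 0.052, adjusted p = 0.044) and 9 min (-0.12 ± 0.04, adjusted p = 0.049). It had 0.0077 ± 0.056 (SE, adjusted p = 0.92) at 15 min. With GC correction it was called lower at 8 of 8 time points (all genes between 10.2% and 29.8%), at -0.28 at 15 min. After 300 g it fell from 209, 222, 219 and 216 CPM to 143, 153, 140.3 and 146 CPM, with -0.60 ± 0.036 (SE, adjusted p = 3.2e-11). GC correction turned this to 0.11 (adjusted p = 0.0074), while the median of all genes in this comparison stood at 0.13 with the correction and at 0.0055 without it.

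PTGES3 (p23) fell at 20 s, 75 s, 3 min and 15 min, most at 3 min with -0.32 ± 0.064 (SE, adjusted p = 0.0013), and had 0.027 ± 0.033 (SE, adjusted p = 0.64) at 7 min. With GC correction its values at 9 g lay between -0.13 and 0.08, none of them past the threshold, and that at 15 min was 0.057. After 300 g it held 274, 298, 276 and 301 CPM against 309.8, 288, 324 and 296 CPM in Ctrl300, overlapping, with -0.12 ± 0.043 (SE, adjusted p = 0.021). Leaving out 1 library moved the value between -0.14 and -0.070. Its direction turned with the scaling. Scaling by total counts alone gave 0.13, with the median of all genes at 0.25 in place of 0.0055, and GC correction gave -0.54.

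HSF1 and HSF2 moved in opposite directions where both were called, and with GC correction these calls were lost or turned. HSF1 ran from 279 to 324 CPM with a median of 305 in Ctrl, and the 5 libraries of hypg15 held 408, 356, 381, 352 and 409.6 CPM, all above the control. It rose at 75 s (0.089 ± 0.032, adjusted p = 0.049), 3 min (0.19 ± 0.04, adjusted p = 0.0018) and 15 min (0.31 ± 0.05, adjusted p = 0.00014). HSF2, a factor with roles in development that can pair with HSF1, ran from 17.8 to 21.1 CPM with a median of 19.5 in Ctrl and held 13.6, 13.8, 17.6, 14.7 and 10.6 CPM in hypg15, all below the control. It fell at 3 min (-0.20 ± 0.068, adjusted p = 0.03) and 15 min (-0.49 ± 0.10, adjusted p = 0.0011). With 3 surrogate variables neither factor was called at any of the 8 time points (all genes 4.32% or less), and HSF2 turned to 0.40 at 15 min (adjusted p = 0.35).

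After 300 g the signs were exchanged. HSF1 fell from 276, 303, 293 and 311 CPM to 182, 191, 178 and 183 CPM, with -0.72 ± 0.039 (SE, adjusted p = 9.6e-12). HSF2 rose from 15.8, 14.3, 16.2 and 14.4 CPM to 27.1, 30.3, 27.1 and 28.2 CPM, with 0.86 ± 0.058 (SE, adjusted p = 2.4e-10). The groups did not overlap for either factor. In heated cells HSF1 held 289.5, 285, 312 and 304 CPM, with 0.028 ± 0.038 (SE, adjusted p = 0.66), and HSF2 15.5, 15.4, 15 and 16.4 CPM, with 0.053 ± 0.063 (SE, adjusted p = 0.61).

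The changes of both factors went with GC content. HSF1 has the highest GC content of the members, 64.7%, and HSF2 the lowest, 40.5%. With GC correction HSF1 in wait1min was at 0.029 (adjusted p = 0.44) and HSF2 at 0.0014 (adjusted p = 0.98), and neither was called. Over the 8 time points at 9 g, HSF1 was called lower at 3 and HSF2 called higher at 3 with the correction. Between 10.2% and 29.8% of all genes were called lower there and between 4.02% and 17.3% higher. At 15 min of 9 g HSF1 and HSF2 were at -0.038 and -0.12, neither called, and at 3 min HSF1 turned to -0.077 (adjusted p = 0.032). The median of all genes with the correction was itself -0.069 at 3 min and -0.070 at 15 min. Over the 10 members, Spearman's rho between GC content and log2 fold change was 0.84 in hypg15 and -0.60 in wait1min, against 0.67 and -0.69 over all genes, and with GC correction 0.28 and -0.0061. These points are genes of the same libraries and no replicates.

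**Figure D4:**
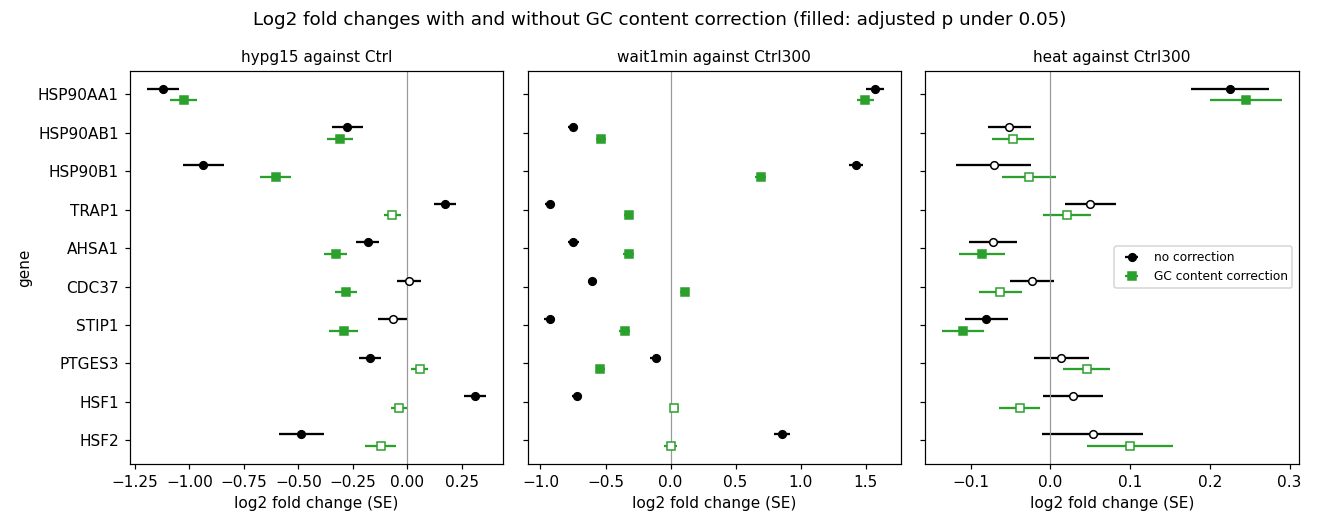
Log2 fold change with SE (x axes, each panel on its own scale) of the 10 members (y axis) without (black circles) and with GC correction (green squares) in hypg15, wait1min and heat, where filled symbols had an adjusted p under 0.05. HSP90AA1 changes little with the correction, from -1.12 to -1.03 in hypg15, while HSF1 and HSF2 move close to 0 in hypg15 and wait1min.

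Compared per exon length, HSP90AB1 was the highest member in all 15 groups. In Ctrl it stood at 864 ± 57.6 CPM per kilobase (SD, n = 6), followed by HSP90AA1 at 162 ± 13.3 and STIP1 at 136 ± 9.9, whose ranges overlapped. PTGES3 at 93.8 ± 3.77, CDC37 at 75.5 ± 4.72 and TRAP1 at 67.5 ± 3.76 came next, the last 2 overlapping. AHSA1 at 57.3 ± 3.09 and HSF1 at 57.1 ± 3.12 were not separated, and HSP90B1 at 11.2 ± 1.17 and HSF2 at 7.22 ± 0.416 were lowest. The length of HSP90B1 in the table, 13092 bases of summed exons, is the longest of the members, which lowers its value on this scale.

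The place of HSP90AA1 in this order moved with the treatment. It was second in Ctrl, and sixth in hypg15 at 75.6 ± 8.77 CPM per kilobase (n = 5), where its range overlapped those of CDC37 above it and of HSF1 below it. In Ctrl300 it ranked 3, at 90.7 ± 8.41 (n = 4), overlapping PTGES3, and in wait1min second again at 275 ± 30.6, with no overlap with HSP90AB1 at 530.2 ± 30.2 or PTGES3 at 84.5 ± 4.19.

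**Figure D5:**
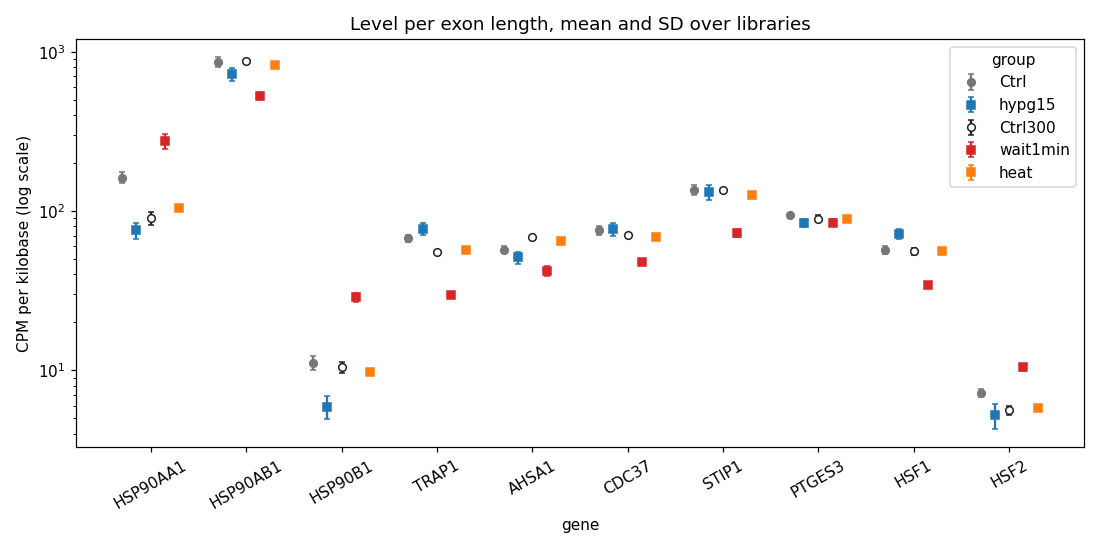
CPM per kilobase of summed exons (y axis, log scale) of the 10 members (x axis) in Ctrl, hypg15, Ctrl300, wait1min and heat, as mean and SD over libraries (n = 6, 5, 4, 4 and 4). HSP90AB1 is highest in each group, and HSP90AA1 comes closest to it in wait1min.

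Of 30 further cochaperones, all tested, 5 fell and 0 rose at 20 s (all genes 8.58% lower and 6.66% higher), 8 fell and 3 rose at 75 s (all genes 14.4% lower and 16.8% higher) and 12 fell and 4 rose at 3 min (all genes 24.4% lower and 16.9% higher). At 5 min edgeR called 0 of them (all genes 1.69% lower and 4.33% higher), 4 fell and 1 rose at 7 min (all genes 6.19% lower and 6.64% higher) and 2 fell and 3 rose at 9 min (all genes 8.34% lower and 11.3% higher). Later, 11 fell and 7 rose at 15 min (all genes 27.9% lower and 25.4% higher) and 3 fell and 5 rose at 60 min (all genes 13% lower and 17.1% higher). In the other experiment 16 fell and 13 rose in wait1min (all genes 40.1% lower and 41.4% higher) and 3 fell and 5 rose in heated cells (all genes 10.2% lower and 10.6% higher). The median log2 fold change of the cochaperones in wait1min was -0.38, against 0.0055 over all genes. CHORDC1, a cochaperone that is itself a heat shock gene, stood at 18.9 ± 2.57 CPM in Ctrl300 and 108 ± 9.61 CPM in wait1min (SD, n = 4 each), a log2 fold change of 2.49 (edgeR, adjusted p = 8.7e-15), or 0.95 with GC correction. AHSA2P, a relative of AHSA1 annotated as a pseudogene, rose at 15 min (0.53), 60 min (1.07), in wait1min (1.72) and in heated cells (0.66), and NUDC fell in wait1min (-0.94) and in heated cells (-0.21).

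Of 10 partners of the HSP70 system, 5 fell and 1 rose at 20 s (all genes 8.58% lower and 6.66% higher). At 75 s 8 fell and 1 rose (all genes 14.4% lower and 16.8% higher). At 3 min 8 fell (all genes 24.4% lower and 16.9% higher). At 5 min 1 fell (all genes 1.69% lower and 4.33% higher) and at 7 min 7 (all genes 6.19% lower and 6.64% higher). At 9 min 6 fell (all genes 8.34% lower and 11.3% higher). At 15 min 5 fell and 2 rose (all genes 27.9% lower and 25.4% higher). At 60 min 2 fell and 2 rose (all genes 13% lower and 17.1% higher). In wait1min 6 fell and 4 rose (all genes 40.1% lower and 41.4% higher). In heated cells 2 fell and 1 rose (all genes 10.2% lower and 10.6% higher). The counts at 60 min, in wait1min and in heated cells lay nearer to these shares than those at 75 s and 7 min. HSPA8, the constitutive cytosolic HSP70, fell at 75 s (-0.30) and in wait1min (-0.74) and rose at 15 min (0.23) and 60 min (0.34). HSPA5 (BiP), which works beside HSP90B1 in the endoplasmic reticulum, fell in wait1min at -0.69, opposite to HSP90B1, and stayed at -0.66 with GC correction. HSPA9, its mitochondrial counterpart, fell in wait1min at -0.16, or -0.49 with GC correction, in the direction of TRAP1.

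Of 8 further heat shock factors and regulators of HSF1, 6 were tested. At 20 s 0 were called (all genes 8.58% lower and 6.66% higher), and at 5 min 0 (all genes 1.69% lower and 4.33% higher). At 75 s 1 fell and 2 rose (all genes 14.4% lower and 16.8% higher). At 3 min 2 fell and 1 rose (all genes 24.4% lower and 16.9% higher). At 7 min 1 rose (all genes 6.19% lower and 6.64% higher). At 9 min 1 fell and 2 rose (all genes 8.34% lower and 11.3% higher). At 15 min 2 fell and 1 rose (all genes 27.9% lower and 25.4% higher). At 60 min 1 fell and 3 rose (all genes 13% lower and 17.1% higher). In wait1min 2 fell and 3 rose (all genes 40.1% lower and 41.4% higher). In heated cells 1 fell (all genes 10.2% lower and 10.6% higher). The counts of so few genes were not tested against these shares. SIRT1, a deacetylase that acts on HSF1, fell at 15 min (-0.57) and rose in wait1min (1.31, or 0.46 with GC correction). EP300, an acetyltransferase, rose in wait1min (0.30), and HSBP1, which binds HSF1, fell there (-0.20).

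Of 9 inducible targets of HSF1, 8 were tested at most time points and 9 at 60 min and in heated cells. At 9 g, 4 fell and 1 rose at 20 s (all genes 8.58% lower and 6.66% higher), 3 fell and 1 rose at 75 s (all genes 14.4% lower and 16.8% higher) and 3 fell and 0 rose at 3 min (all genes 24.4% lower and 16.9% higher). At 5 min 0 were called (all genes 1.69% lower and 4.33% higher). After longer exposures 3 fell and 0 rose at 7 min (all genes 6.19% lower and 6.64% higher), 2 fell and 0 rose at 9 min (all genes 8.34% lower and 11.3% higher) and 4 fell and 2 rose at 15 min (all genes 27.9% lower and 25.4% higher). At 60 min, where HSP90AA1 was not called, 5 rose, and over all genes 17.1% were called higher. In wait1min, where HSP90AA1 rose, 4 fell and 4 rose, near the 40.1% lower and 41.4% higher over all genes, and in heated cells 3 fell and 3 rose, against 10.2% lower and 10.6% higher. HSPA1B, an inducible HSP70, stood at 13.4 ± 0.487 CPM in Ctrl60 and 86.8 ± 11.2 CPM in hypg60 (SD, n = 6 each), a log2 fold change of 2.69 (adjusted p = 2.7e-11). It fell in wait1min (-0.78, or -0.094 with GC correction) and rose in heated cells (0.63). HSPA1B is nearly identical to HSPA1A, so that its counts are uncertain. HSPB1, a small heat shock protein, fell in wait1min (-0.82, or -0.074 with GC correction) and had 0.075 at 60 min.

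The genes most like HSP90AA1 over the 10 group means of log2 CPM in the 9 g experiment were RASSF3, USP14, ZDHHC6, MED1 and INTS10, with Pearson's r between 0.98 and 0.99. Among the members the order was HSP90B1 (r = 0.95, rank 84 of 8932 genes), PTGES3 (0.89), HSP90AB1 (0.70), HSF2 (0.59), AHSA1 (0.48), STIP1 (0.076), CDC37 (-0.31), TRAP1 (-0.80) and HSF1 (-0.91). The 10 points share their libraries and their GC content across genes, and these values are a description. Pseudogenes of HSP90AA1 (5), HSP90AB1 (6), HSP90B1 (2) and PTGES3 (5) together held under 1% of the counts of their gene in every library, with the highest share, 0.935%, for HSP90B1.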

How the data were processed

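Read pairs were trimmed, aligned and counted by the authors, with Trim Galore 0.6.5, STAR 2.7.3a, featureCounts 2.0.1 and hg38 named in the submitters' processing notes, whereas the header of the count table names featureCounts 2.0.3 and Ensembl release 104. The deposited table holds raw counts per gene with the summed exon length in bases. 3 broken lines were left out. Samples were grouped by their titles, also where the column names of Ctrl60, wait1min and wait4min read otherwise, and library 75 was left out.

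Each group was compared with its own control by edgeR 4.0.16 (R 4.3.3), with TMM normalization, filterByExpr at a minimum count of 10, the quasi-likelihood test and Benjamini-Hochberg adjustment over all genes tested at 0.05. CPM used TMM library sizes. Ratios had 0.5 added to each count and were adjusted over 36 tests. Alternatives were no filter, RLE size factors, total counts only, DESeq2 1.42.0, all groups in a single model, 3 surrogate variables (sva 3.50.0, 9 g only), GC content correction, library 75 included, and leaving out each library in turn for hypg15, the 300 g groups and heat, library 29 for hypg5 and library 44 for hypg60. The fit script was tested on simulated data. Promoters came from RefSeq (GRCh38.p14).

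The members and lists were chosen with earlier results of these data known. Among genes averaging 10 CPM or more, at most 3 per list were named, by the largest absolute mean log2 fold change over the 12 comparisons with own controls, and the 5 with the highest Pearson's r with HSP90AA1.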

Additional observations from a re-analysis of the deposited data

Results flagged for a closer look

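Of 150 checks of a member in a group, 6 found a library that stood apart, where chance flags about 1 in 20 groups. HSP90AA1 stood at 436 CPM in library 29 of hypg5, with the next library at 661 CPM. HSP90B1 stood at 187 CPM in library 44 of hypg60, with the next at 116 CPM. Library 64 of wait15min was low for HSP90AB1, at 1456 CPM with the next at 1583 CPM, and for PTGES3, at 259 CPM with the next at 276 CPM. STIP1 stood at 607 CPM in library 49 of Ctrl300, with the next at 629.7 CPM, and HSF2 at 26.0 CPM in library 59 of wait4min, with the next at 26.8 CPM.

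The effects on HSP90AA1 differed between treatments in 5 tests of the difference by edgeR. The log2 differences were 0.73 between hypg7 and hypg3, -0.85 between hypg15 and hypg9, 1.03 between the effects of hypg60 and hypg15, -1.44 between heat and wait1min, and 1.89 between the effects of wait1min and hypg5, the last across 2 separate experiments.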

How the results depend on the processing

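The 24 called ratios kept their direction and side of the threshold with 2 in place of 0.5 added to each count, and no ratio was run with GC correction. The 5 differences between treatments kept theirs with RLE size factors, total counts only, DESeq2 and GC correction. Leaving out each library in turn for hypg15, the 300 g groups and heat gave ratios that were computed without a test and that moved by less than the spread between libraries. HSP90AA1 log2 fold changes with 3 surrogate variables were -0.15 at 75 s, -0.35 at 3 min and -0.24 at 7 min, no longer called, and 0.26 at 9 min. A single model over all groups gave -0.31 at 7 min and -0.26 at 9 min, and total counts only gave -0.22 at 9 min, none called. Without library 29 the value at 5 min was -0.21 and called, and without the filter on low counts that of wait15min against wait1min was -0.16 and called. Both single-library settings, 29 and 44, were chosen after seeing the data. The cause of these changes was not tested.

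Members called with GC correction numbered 6 at 20 s (all genes 14.2%), 6 at 5 min (all genes 15.5%) and 7 at 60 min (all genes 41.4%). With 3 surrogate variables there were 0 at 75 s, 3, 5, 7, 9 and 60 min (all genes between 0% and 0.496%). At 15 min there was 1 (all genes 0.34%). The single model called 1 at 20 s (all genes 828 higher and 499 lower of 17941). It called 2 at 9 min (all genes 1691 higher and 1035 lower of 17941). At 60 min it called 3 (all genes 3712 higher and 3466 lower of 17941), and in heat 6. Without the filter there were 0 at 5 min (all genes 409 higher and 156 lower of 33970). There were 2 at 60 min (all genes 2530 higher and 2135 lower of 33812) and 1 for wait15min against wait1min. DESeq2 called 2 at 60 min (all genes 2811 higher and 2507 lower of 16318), and total counts only called 1 in heat. Including library 75 left 5 at 15 min (all genes 2694 higher and 2412 lower of 15736). Without library 29 there were 2 at 5 min (all genes 668 higher and 319 lower of 16421). Without library 44 there were 3 at 60 min (all genes 3482 higher and 3637 lower of 16417). Leaving out a library gave 9 or 10 in wait1min and 1 to 3 in heat. With all libraries, the reported fit called 40.1% lower and 41.4% higher of all genes in wait1min. In heat it called 10.2% lower and 10.6% higher, and for wait15min against wait1min 0.149%. For these comparisons the shares under the other settings are not given here.

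Among values called by the reported fit or by the alternative, directions turned with GC correction for TRAP1 (-0.085 at 20 s, -0.074 at 3 min, -0.069 at 15 min), CDC37 (-0.12 at 20 s, -0.28 at 15 min, 0.11, 0.077 and 0.045 at 1, 4 and 15 min after 300 g), PTGES3 (0.057 at 15 min), HSF2 (0.15 at 20 s, 0.077 at 3 min, -0.040 and -0.14 at 4 and 15 min after 300 g) and HSF1 (-0.082 at 75 s, -0.077 at 3 min, -0.038 at 15 min, -0.091 at 60 min, 0.029, 0.025 and 0.041 after 300 g). They turned with 3 surrogate variables for STIP1 (0.00038 at 75 s), HSF1 (-0.0042 at 75 s), HSP90AB1 (0.044 at 3 min, 0.080 at 9 min, 0.13 at 15 min), AHSA1 (0.050 at 3 min, 0.17 at 15 min), HSP90B1 (0.070 at 15 min), PTGES3 (0.13 at 15 min) and HSF2 (0.40 at 15 min). Total counts only turned PTGES3 to 0.13, 0.10 and 0.079 at 1, 4 and 15 min after 300 g. With GC correction the median of all genes was itself -0.041 at 20 s, -0.022 at 75 s and -0.069 at 3 min. It was -0.070 at 15 min and -0.035 at 60 min, and 0.13, 0.13 and 0.12 at 1, 4 and 15 min after 300 g. The values of TRAP1 and HSF1 at 3 min and of TRAP1 at 15 min lay near it. The cause was not tested. No paired analysis was possible because the library numbers are unique and shared by no groups. HSF2 had the fewest counts per library, 245 to 1049.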

Other observations

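Deviations of HSP90AA1 from its group mean of log2 CPM went with those of HSP90B1 over single libraries. Over the 59 libraries of the 9 g experiment, Pearson's r was 0.947 and Spearman's rho 0.940, each with permutation p = 1e-05, the smallest that 100000 permutations can give (adjusted 2e-05 and 3e-05 over 6 relations), and r was 0.927 without the 2 farthest libraries. With HSP90AB1 r was 0.199 and rho 0.138 (permutation p = 0.13 and 0.29, adjusted 0.13 and 0.29), and r was 0.133 without the 2 farthest. With the GC content of the counted genes, r was -0.760 and rho -0.758 (each permutation p = 1e-05, adjusted 2e-05 and 3e-05), and r was -0.664 without the 2 farthest.

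Over the 20 libraries of the 300 g and heat experiment, r with HSP90B1 was 0.915 and rho 0.856 (permutation p = 1e-05 and 2e-05, adjusted 2e-05 and 4e-05), and r was 0.820 without the 2 farthest. With HSP90AB1 r was 0.559 and rho 0.409 (permutation p = 0.011 and 0.075, adjusted 0.0132 and 0.09), and r was 0.272 without the 2 farthest, so that the relation rests on those libraries. With the GC content r was -0.610 and rho -0.592 (permutation p = 0.0045 and 0.0064, adjusted 0.00675 and 0.0096), and r was -0.392 without the 2 farthest. The members share libraries, and the part of GC content in these relations was not tested.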
